A study of Homo sapiens with 19 samples.

Results

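The genes described are 7 binders of AU-rich elements: ELAVL1, ZFP36, ZFP36L1, ZFP36L2, KHSRP, TIA1 and TIAL1. They were taken as a named list, out of 22760 genes with a read on an annotated splice junction in the series. Their reads fell on 86 of the 253219 annotated junctions with a read. ELAVL1 heads the list because its reads were low in the RBFOX2 total knockdown libraries in an earlier pass over these data. Its values in that comparison are therefore given as a description, without a p-value. Counts of calls that include it there are not read as a result.

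The series measured spliced RNA as the number of sequencing reads across each splice junction, in 19 ribosomal RNA-depleted libraries of 3 human cell lines. Of these, 14 came from HUES66, a human embryonic stem cell line, treated with 1 µg/ml doxycycline: 3 control, 3 RBFOX2 total knockdown (total KD), 4 RBFOX2 N-short knockdown (N-short KD) and 4 RBFOX2 N-long knockdown (N-long KD) libraries. RBFOX2 is an RNA-binding regulator of splicing. Its isoforms were knocked down with Cas13d, a guide-directed enzyme that cuts RNA. The doxycycline libraries form 4 sets, with at most 1 library of a group in each: 24 hr replicate 1, which has no library titled control, 24 hr replicate 2, which lacks total KD, and the complete sets of 48 and 96 hr. The other 5 libraries, 1 each, are wild-type HUES66, wild-type HEK293 (an embryonic kidney line) and total, nuclear and cytoplasmic RNA of the melanoma line A375. The labels do not say how many clones or cultures stand behind a group, so p-values measure only the spread between these libraries. A gene's level is given as CPM, its spliced reads per 1000000 reads on annotated junctions. The library totals behind it, which leave out junctions shared by several gene names, ran from 9117819 to 13839308 reads in the doxycycline libraries and from 6067001 to 26402715 in all 19. RBFOX2, the targeted gene, had 125.8 to 132.9 CPM in the controls. It had 51.1 to 83.3 in total KD, 76.7 to 92.7 in N-long KD and, in N-short KD, 113.2 to 127.6. All 14 pluripotency markers listed for the check of identity were at 1 CPM or more in every doxycycline library, and at most 1 of 11 germ-layer markers was.

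AU-rich elements are stretches of A and U in the untranslated ends of many short-lived messenger RNAs, among them transcripts of cytokines, growth factors and cell-cycle regulators. ELAVL1, also called HuR, binds them and stabilises the message. The ZFP36 family, zinc-finger proteins, and KHSRP, a KH-domain protein, bind similar elements and recruit the enzymes that shorten the poly(A) tail and degrade the message. TIA1 and TIAL1 are a pair of closely related proteins with RNA recognition motifs that repress translation, gather in stress granules and also act in the nucleus as splicing regulators.

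ELAVL1 lies on the minus strand of chromosome 19 (chr19:7958579-8005659, GRCh38). Its coding transcript has 5 introns, and the reads that measure it join the exons on each side. The exon ends at introns 2 to 5 follow, with the downstream exon in capitals, and those at intron 1 (chr19:7991832-8005494) are not printed. They are shown because most reads counted for ELAVL1 cross such a join. Reads on minor annotated junctions of the gene were counted as well. The intron removed is named before each sequence, and all sequences here were cut by script from GENCODE 29 transcripts (GRCh38).
ELAVL1 intron 2, chr19:7981187-7991643: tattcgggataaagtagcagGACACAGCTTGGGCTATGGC
ELAVL1 intron 3, chr19:7973879-7981082: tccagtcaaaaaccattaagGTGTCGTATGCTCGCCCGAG
ELAVL1 intron 4, chr19:7967791-7973724: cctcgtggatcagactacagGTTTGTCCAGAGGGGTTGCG
ELAVL1 intron 5, chr19:7963808-7967564: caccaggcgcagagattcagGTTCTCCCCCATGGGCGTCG

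TIA1 and TIAL1 hold alternative exons whose use the results below follow, and these are printed for that reason. The exon of TIA1 that is 66 nt long (chr2:70225328-70225393) and the exon of TIAL1 that is 376 nt long (chr10:119580471-119580846) each carry a stop codon, and GENCODE 29 annotates their transcripts as subject to nonsense-mediated decay. Both lie between an upstream exon of 88 nt and a downstream exon of 76 nt, and both place the stop after 34 nt of the exon. Their first 37 nt, printed to the end of the stop codon (taa), were identical at 25 positions (67.6%), and the capitals mark the longest run they share, 12 nt that begin at base 11 of each exon.
TIA1 66 nt exon, chr2:70225357-70225393: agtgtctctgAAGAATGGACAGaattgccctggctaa
TIAL1 376 nt exon, chr10:119580810-119580846: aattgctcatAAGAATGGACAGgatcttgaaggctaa
The next pair are in-frame alternatives of coding transcripts, in capitals between 12 nt of neighbouring exon on each side. In TIA1 a whole exon of 33 nt can be left out. In TIAL1 an alternative splice site adds or removes 51 nt at the start of an exon.
TIA1 33 nt exon, chr2:70229059-70229091: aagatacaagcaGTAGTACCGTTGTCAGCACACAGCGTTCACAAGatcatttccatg
TIAL1 51 nt part, chr10:119582558-119582608: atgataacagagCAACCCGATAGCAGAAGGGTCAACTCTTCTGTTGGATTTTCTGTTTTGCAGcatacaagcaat

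ELAVL1 was lower in every total KD library than in any other HUES66 library. It was at 26.9 CPM in total KD at 24 hr replicate 1 (367 reads), 52.9 at 48 hr and 62.5 at 96 hr. The controls were at 102.7 CPM at 24 hr replicate 2, 80.4 at 48 hr and 93.0 at 96 hr. Over the 11 doxycycline libraries other than total KD the range was 80.4 to 103.2 CPM, and wild-type HUES66 was at 98.3. The 24 hr total KD library was the lowest of all. ELAVL1 was chosen for this difference, so nothing is read from the separation of the groups. In bulk RNA, less ELAVL1 RNA in each cell and fewer cells that express it cannot be told apart.

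Within sets, total KD had 65.7% of the control's ELAVL1 CPM at 48 hr, with a 95% interval of 59.6 to 72.6. The share at 96 hr was 67.2%, with an interval of 60.97 to 74.02. These intervals come from an exact test on the counts and cover counting error only, since each compares 1 library with 1 other. Reads copied by PCR are not independent molecules, so the intervals can be too narrow even for that error. At 24 hr replicate 1, where no library is titled control, total KD had 27.4% of wild-type HUES66 (24.5 to 30.6). The labels of that library differ among themselves: it is titled wild type and given no treatment, but its description carries the library series name of the 24 hr replicate 1 knockdowns and the word "empty", as those of the titled controls do. Percentages of wild-type HUES66 can therefore be relative to untreated cells or to the control of that set. Against the N-short KD library of the same set, which every set has, total KD stood at 26.1% at 24 hr replicate 1 and at most at 62.9% in the other sets. The difference between times was not tested, as each set has 1 total KD library.

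In the fit over all 14 doxycycline libraries (edgeR, with a term for set), ELAVL1 had a log2 fold change of -0.93 (SE 0.13) in total KD against control. It was -0.64 without the 24 hr total KD library. The median over the 13393 genes tested was 0.00, 42 genes had a log2 fold change at or below that of ELAVL1, and 3 of these 42 passed an adjusted p of 0.05. ELAVL1 was the 1 of 6 tested members called, beside 2.28% of all genes, and since it was chosen on this contrast nothing is read from that count. The summed CPM of the 14 pluripotency markers was highest in total KD in each of its 3 sets. It was 6239 in total KD at 24 hr replicate 1 (5964 and 6150 in the isoform knockdowns), 5988 at 48 hr (5916 in control) and 7343 at 96 hr (6491 in control), and its part in the ELAVL1 level was not tested.

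**Figure D1:**
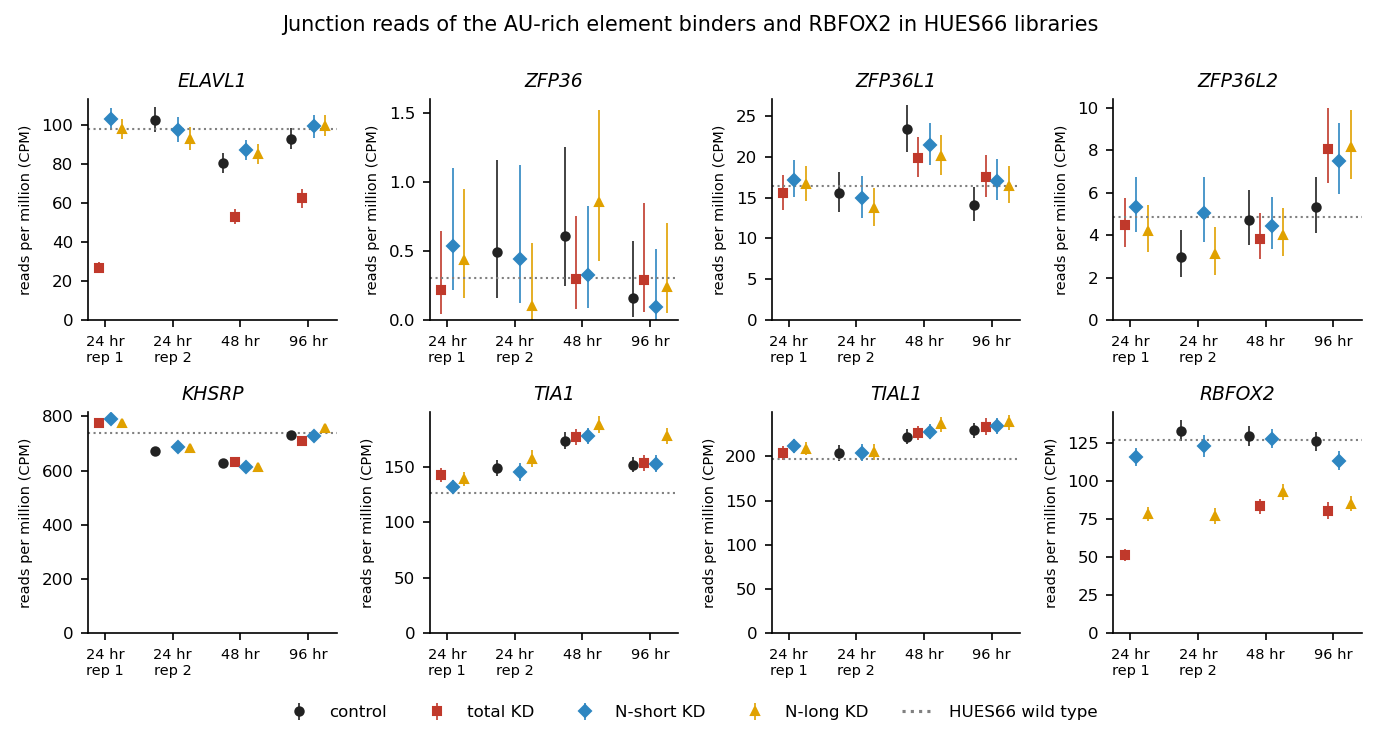
CPM of the 7 AU-rich element binders and RBFOX2 (y axes, each from 0) in the 14 doxycycline HUES66 libraries by set (x axis), with 95% Poisson intervals as bars and wild-type HUES66 as a dotted line. ELAVL1 in total KD is at 26.9, 52.9 and 62.5 CPM, below all other points of its panel, while ZFP36L1, ZFP36L2, KHSRP, TIA1 and TIAL1 in total KD lie near the other libraries of their sets.

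The low level was seen at each of the 5 introns of the ELAVL1 coding transcript. Reads that lie wholly within an exon, such as the long last exon, were not counted. At 24 hr replicate 1 the 5 introns had 22.7% to 32.6% of the wild-type CPM in total KD. At 48 hr they had 56.3% to 77.7% of the control, and at 96 hr 64.6% to 69.6%. The lowest at 24 hr was intron 1 (chr19:7991832-8005494), with 32 reads in total KD against 273 in wild type, and the highest was intron 2. The highest of the later values was intron 3 at 48 hr, with 186 reads in total KD against 203 in the shallower control. In the fit over all annotated junctions the 5 log2 fold changes lay between -1.04 and -0.82. All 5 were called and no other of the 63 tested member junctions was, beside 0.459% of 120834 junctions. Nothing is read from this count, which again rests on the contrast used to choose ELAVL1 and on parts of the same gene sum. It was 4 without the 24 hr total KD library.

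**Figure D2:**
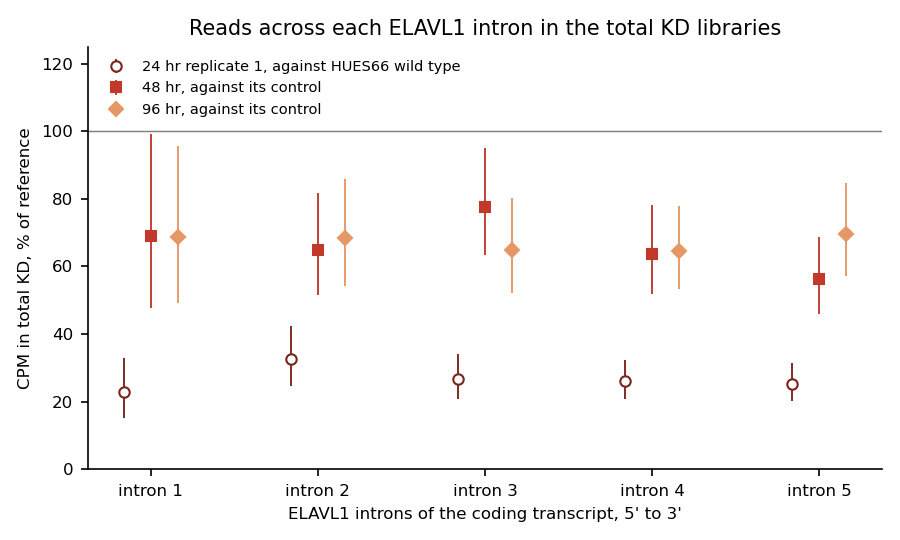
ELAVL1 CPM across each of the 5 introns of the coding transcript (x axis, 5' to 3') in total KD as a percent of the reference (y axis), with 95% counting intervals. Open circles (24 hr replicate 1 against wild-type HUES66) lie between 22.7% and 32.6%, and filled symbols (48 and 96 hr against their controls) between 56.3% and 77.7%.

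Reads into a minor ELAVL1 exon of 67 nt were few in every library. This exon lies within intron 4 of the main transcript and ends a short annotated reading frame. Its bases up to the stop codon (capitals) are shown because reads into it were most numerous in the library with the least ELAVL1.
ELAVL1 67 nt exon, chr19:7973594-7973625: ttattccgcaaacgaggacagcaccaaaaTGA
The junction into it (chr19:7973626-7973724) took 11 of 367 ELAVL1 reads in total KD at 24 hr replicate 1, or 3.0% (95% Wilson interval 1.68 to 5.29). The other libraries of that set had 2 of 1357 (N-short KD) and 6 of 1357 (N-long KD). The share is taken over the ELAVL1 reads, which were themselves low in that library, and the interval covers counting error only. Total KD also had the highest share of its set at 48 hr, 3 of 719 reads or 0.417%, and at 96 hr, 4 of 650 reads or 0.615%, but these intervals overlapped those of the other libraries of the set. The junction out of the exon (chr19:7963808-7973558) did not repeat the higher total KD counts. At 24 hr replicate 1 it had 1 read in total KD, 1 in N-long KD and 0 in N-short KD. Total KD had 0 there at both later times, while each isoform knockdown of 96 hr had 2. Wild-type HUES66 had the most, 4 of 2595 ELAVL1 reads. Both junctions are below the filter on low counts and were not tested.

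ELAVL1 was near the control level in N-long KD libraries in which RBFOX2 was low. RBFOX2 CPM in N-long KD was 57.8% of control at 24 hr replicate 2, 71.7% at 48 hr and 67.6% at 96 hr. In total KD it was 64.4% and 63.8% at 48 and 96 hr. These shares sum all RBFOX2 junctions, and single junctions can differ. At the junction chr22:35778079-35781599 total KD had 7.87 and 7.69 CPM at 48 and 96 hr, below the 12.1 and 9.99 of N-long KD. ELAVL1 in the same N-long KD libraries was at 90.7%, 105.7% and 107.3% of control, and the counting interval of the first, 82.9 to 99.2, lay below 100%. At 24 hr replicate 1, where ELAVL1 was lowest, RBFOX2 was also lower in total KD than in N-long KD, at 40.3% and 61.6% of wild-type HUES66, with ELAVL1 at 27.4% and 99.8%. In N-short KD, where RBFOX2 stayed at 89.96% to 98.6%, ELAVL1 was at 95.1%, 108.5% and 106.9%. Against control, edgeR's log2 fold change of ELAVL1 was 0.08 (SE 0.11, adjusted p = 0.9997) for N-long KD. The N-short KD value was 0.12 (SE 0.11) with an adjusted p of 0.999. N-long KD relative to N-short KD gave -0.04 (SE 0.098, adjusted p = 0.991). RBFOX2 itself fell by 0.57 on the log2 scale in N-long KD (SE 0.071), with edgeR's adjusted p at 2.7e-05. The log2 fold change of RBFOX2 in total KD was -0.82 (SE 0.079).

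**Figure D3:**
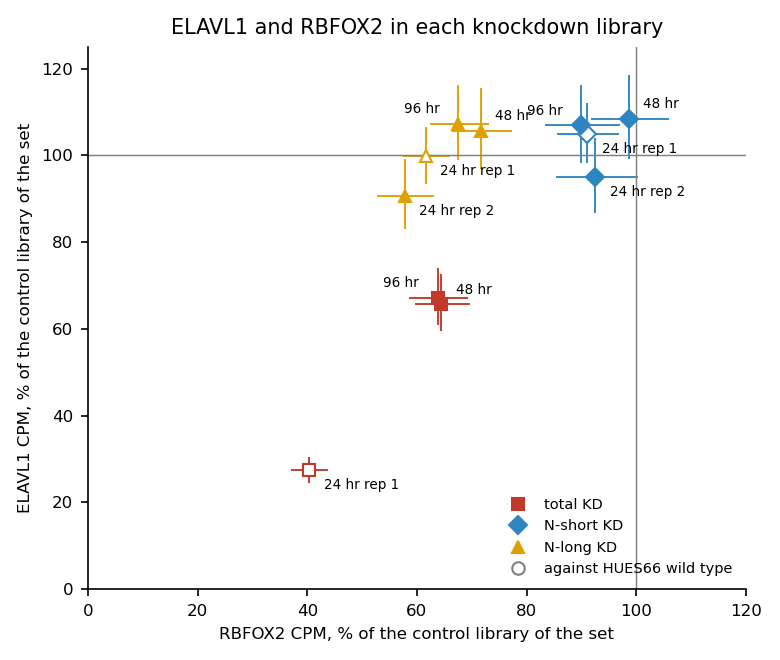
ELAVL1 CPM (y axis) against RBFOX2 CPM (x axis) in each knockdown library, both as a percent of the control of the set, with 95% counting intervals; open symbols use wild-type HUES66 for 24 hr replicate 1, which has no titled control. Outside 24 hr replicate 1, RBFOX2 summed over its junctions lies within 57.8% to 71.7% in total KD and N-long KD. ELAVL1 there is at 65.7% and 67.2% in total KD and at 90.7% to 107.3% in N-long KD. At 24 hr replicate 1 RBFOX2 is at 40.3% in total KD and 61.6% in N-long KD.

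The coding sequences of ELAVL1 and RBFOX2 were compared after these values were seen. They share a run of 15 nt, in capitals here with 12 nt on each side, which in both genes belongs to an RNA recognition motif.
ELAVL1, chr19:7963668-7963682: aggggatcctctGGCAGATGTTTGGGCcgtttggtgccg
RBFOX2, chr22:35778078-35781613: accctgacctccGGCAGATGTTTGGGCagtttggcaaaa
In ELAVL1 the run lies in the last exon. In RBFOX2 it spans a join of 2 exons, over the intron chr22:35778079-35781599. Of 12611 tested genes with a coding sequence, RBFOX genes left out, 113 (0.896%) share a run of at least 15 nt with RBFOX2, and no other member does. Over 23 nt the closest ELAVL1 stretch differs from RBFOX2 at 2 bases. A stretch with at most 2 differences was found in 24 of the 12611 genes (0.19%). Of these 24 genes 1 was called in total KD, ELAVL1 itself, and their median log2 fold change was -0.0004. The closest, TLE3 with 1 difference, had a log2 fold change of 0.06. The nearest stretches of the other members had 4 differences (ZFP36L1), 5 (KHSRP, ZFP36L2) or 6 (TIA1, TIAL1). The RBFOX2 junction at the run was at 3.37, 7.87 and 7.69 CPM in total KD at 24, 48 and 96 hr, against 15.5 to 17.4 in the controls. N-long KD had 8.74 to 12.1 there, and N-short KD 13.9 to 16.3. Guide sequences were not used here, and whether the shared run bears on the ELAVL1 level was not tested.

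The members that promote decay did not show the ELAVL1 pattern. ZFP36, the founding member of its family, had 1 to 11 reads in each doxycycline library (0.0923 to 0.850 CPM), below the filter, so it was not tested in any contrast. ZFP36L1 was at 15.5 to 19.9 CPM in total KD and 14.1 to 23.3 in the controls, with a log2 fold change of -0.06 (SE 0.11). ZFP36L2 was at 3.82 to 8.07 CPM in total KD and 2.97 to 5.31 in the controls, with a log2 fold change of 0.22 (SE 0.20). KHSRP, the most abundant member, was at 631.5 to 774.1 CPM in total KD and 628.5 to 732.0 in the controls, with a log2 fold change of -0.02 (SE 0.032). For all of them the ranges of total KD and control, pooled over sets, overlapped. Within the 2 sets that hold both, total KD was at 85.1% and 124.0% of control for ZFP36L1. The shares were 81.6% and 152.0% for ZFP36L2 and 96.7% and 100.5% for KHSRP. For each of these genes 1 of the 2 counting intervals excluded 100%. The sign of the fitted change rested on single controls for the ZFP36 relatives: it was 0.06 for ZFP36L1 without the control of 48 hr, and -0.02 for ZFP36L2 without that of 96 hr. That of KHSRP turned to 0.04 without the term for set.

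The ranges of the translational repressors also overlapped between total KD and control. TIA1 was at 142.4 to 176.7 CPM against 148.5 to 173.3 in the controls (log2 fold change 0.03, SE 0.044, or -0.02 without the term for set). TIAL1 was at 203.9 to 233.6 CPM against 204.0 to 229.3 (log2 fold change 0.00, SE 0.039). Per kilobase of exon the medians over the 14 libraries ran from 152.8 CPM for KHSRP and 30.5 for TIAL1 to 23.1 for TIA1, 13.4 for ELAVL1, 3.26 for ZFP36L1, 1.24 for ZFP36L2 and 0.153 for ZFP36. Only spliced reads are counted, so genes with few introns, such as ZFP36L2 with 1, are counted less fully on this scale than KHSRP.

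In the isoform knockdowns no member gene was called: 0 of 6 in N-short KD, beside 0.00747% of all genes, 0 of 6 in N-long KD (0.0224%) and 0 of 6 between the isoform knockdowns (0.0149%). DESeq2 also called 0 of 6 in each. In each contrast 1 of the 6 had an unadjusted p under 0.05 by edgeR. For N-short KD this was ZFP36L2, whose log2 fold change was 0.39 (SE 0.19) with an adjusted p of 0.999. For N-long KD, relative to control and to N-short KD alike, it was TIA1. TIA1 was higher in N-long KD than in N-short KD in 4 of 4 sets, at 105.5% to 116.1%. The log2 fold change was 0.13 (SE 0.036), and edgeR's adjusted p of 0.588 did not pass. Against control TIA1 in N-long KD was at 105.8% to 117.1% in 3 of 3 sets (log2 fold change 0.13, SE 0.040, adjusted p = 0.854). Junction by junction, 0 of 63 member junctions were called by edgeR in N-short KD (0.0108% of all junctions), in N-long KD (0.043%) or between them (0.0306%). Unadjusted p-values under 0.05 numbered 6, 8 and 6. Of the 18 tested TIA1 junctions, 17 had a log2 fold change above 0 for N-long KD relative to N-short KD, with a median of 0.14. Their reads make up the gene's own count in the same libraries. They are thus not independent of each other or of the TIA1 change above.

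By culture time every tested member passed, in a background where most genes did. In the fit of 96 hr against 48 hr, over 8 libraries with a term for knockdown, 6 of 6 tested members passed an adjusted p of 0.05, but so did 60.1% of all 12909 genes tested. ELAVL1, KHSRP, ZFP36L2 and TIAL1 rose (29.7% of all genes did), while ZFP36L1 and TIA1 fell (30.4%). The 48 and 96 hr libraries carry the same library series name, and time cannot be told apart from anything else that differed between the 2 collections.

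ELAVL1 rose from 80.4 to 93.0 CPM in control, from 52.9 to 62.5 in total KD, from 87.2 to 99.4 in N-short KD and from 85.1 to 99.7 in N-long KD. It was higher at 96 hr in 4 of 4 groups, by 0.27 on the log2 scale (SE 0.044), and edgeR's adjusted p was 9.6e-06. Without the term for knockdown the adjusted p was 0.081. All 5 of its junctions rose as well, by 0.19 to 0.36 on the log2 scale, beside 33.3% of all junctions called, 16.8% higher and 16.5% lower.

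KHSRP was at 612.6 to 631.5 CPM at 48 hr and at 707.9 to 756.1 at 96 hr. The log2 fold change was 0.29 (SE 0.026, adjusted p = 7.4e-10 by edgeR), in a fit that called 60.1% of all genes. Of its 19 tested junctions 17 rose and 0 fell. ZFP36L2 had the largest change of the members, from 3.82 to 4.69 CPM at 48 hr to 5.31 to 8.15 at 96 hr (log2 fold change 0.82, SE 0.16, adjusted p = 7.0e-05). ZFP36L1 went the other way, from 19.9 to 23.3 CPM down to 14.1 to 17.5 (log2 fold change -0.33, SE 0.089, adjusted p = 0.0027). Its adjusted p was 0.06 when the control of 48 hr was left out, and 0.058 when that of 96 hr was.

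TIA1 fell and TIAL1 rose, both by little. TIA1 was at 173.3 to 187.6 CPM at 48 hr and 151.4 to 177.3 at 96 hr (log2 fold change -0.12, SE 0.035, adjusted p = 0.0043), and the ranges overlapped through the N-long KD library of 96 hr. TIAL1 was at 222.2 to 236.2 CPM at 48 hr and 229.3 to 238.4 at 96 hr (log2 fold change 0.09, SE 0.030, adjusted p = 0.013). RBFOX2 itself changed by -0.04 on the log2 scale (SE 0.041), with an adjusted p of 0.363 by edgeR. TIA1 and TIAL1 had junctions that moved in both directions: 2 TIA1 junctions rose and 9 fell of 17 tested, and 4 TIAL1 junctions rose and 5 fell of 17 tested, beside 16.8% of all junctions higher and 16.5% lower. The largest fall was at a TIAL1 junction beside the stop-carrying exon (chr10:119580011-119580470, log2 fold change -1.75, SE 0.23).

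Markers of cell state moved with time too. The summed CPM of the 14 pluripotency markers was 5625 to 5988 at 48 hr and 6197 to 7343 at 96 hr. That of 6 fibroblast markers, 3 of them at 1 CPM or more, was 569 to 612 at 48 hr and 380 to 457 at 96 hr. The part of these shifts in the members' changes was not tested.

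Exon use in TIA1 and TIAL1 differed between 48 and 96 hr, and at this depth no member exon was called between knockdowns. There were 6 member exons that passed the filter of a mean of 20 reads and a pooled inclusion of 2% to 98%: TIA1 exons of 33, 66 and 119 nt, and TIAL1 exons of 59, 68 and 376 nt. The 68 and 376 nt exons share a junction and differ only in their end, so they are not independent. Inclusion is the percent of reads at the exon that include it. For N-short KD, N-long KD and the difference between them 0 of 6 were called by edgeR, beside 0.0148%, 0.473% and 0.37% of 6763 exons. In these contrasts a single member exon had an unadjusted p under 0.05, the TIA1 66 nt exon in N-long KD (log2 odds change 0.72, SE 0.33, adjusted p = 0.900). In total KD 0 of 6 were called, beside 1.29%, and 1 had an unadjusted p under 0.05 by edgeR. Against control the log2 odds change of the TIA1 66 nt exon was also above 0 in total KD (0.78, SE 0.35) and N-short KD (0.55, SE 0.35). Between 96 and 48 hr 5 of 6 were called by edgeR, beside 15.2% of all exons (1 member exon higher, beside 7.75%, and 4 lower, beside 7.41%). A limma test on log2 ratios of inclusion to skipping reads called 0 of 6 with changes of like size, unadjusted p-values of 0.0016 to 0.0054 for the same 5 and adjusted values of 0.054 to 0.076.

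The stop-carrying exons of TIA1 and TIAL1 were both used less at 96 hr. Inclusion of the TIA1 66 nt exon was 10.9% in control, 17.02% in total KD, 15.2% in N-long KD and 13.7% in N-short KD at 48 hr. At 96 hr the same groups, in that order, were at 5.04%, 4.35%, 7.55% and 6.0%. The log2 odds fell by 1.41 (SE 0.29, adjusted p = 9.9e-04 by edgeR), in a fit that called 15.2% of all exons. The TIAL1 376 nt exon stood at 14.3% in control, 20% in total KD, 14.8% in N-long KD and 13.6% in N-short KD at 48 hr. At 96 hr it was at 6.09%, 2.84%, 3.94% and 6.25%, a log2 odds change of -1.88 (SE 0.27, adjusted p = 1.3e-05 by edgeR). The 6 libraries of 24 hr lay at 4.35% to 13.5% for TIA1 and at 5.19% to 12.8% for TIAL1, which overlapped the 48 hr range for TIA1 and stayed below it for TIAL1. These values rest on 5 to 24 inclusion reads a library for TIA1 and 5 to 39 for TIAL1. The 59 nt exon of TIAL1 (chr10:119576847-119576905) went from 5.76% to 8.38% at 48 hr down to 1.38% to 2.43% at 96 hr (log2 odds change -1.85, SE 0.31, adjusted p = 9.6e-05 by edgeR).

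The in-frame alternatives moved the other way. The TIA1 33 nt exon was included at 69.0% in control, 73.0% in total KD, 75.9% in N-long KD and 71.2% in N-short KD at 48 hr. At 96 hr it was at 85.1%, 85.7%, 85.7% and 90.6%, and at 24 hr at 87.4% to 92.6% in 6 libraries, so the 48 hr libraries alone were low. The log2 odds rose by 1.30 from 48 to 96 hr (SE 0.22, adjusted p = 9.5e-05 by edgeR). The longer form of TIAL1 with the 51 nt part took 14.98% to 22.4% of reads at that site at 48 hr, 29.9% to 37.6% at 96 hr and 19.7% to 35.1% at 24 hr. It is no cassette exon and had no test of its own, but its 2 junctions did: that of the longer form rose by 0.90 on the log2 scale (SE 0.14) and that of the shorter form fell by 0.35 (SE 0.085), both past an adjusted p of 0.05. The TIA1 119 nt exon had a log2 odds change of -0.20 (SE 0.40, adjusted p = 0.804), which turned to 0.13 without the N-long KD library of either time.

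**Figure D4:**
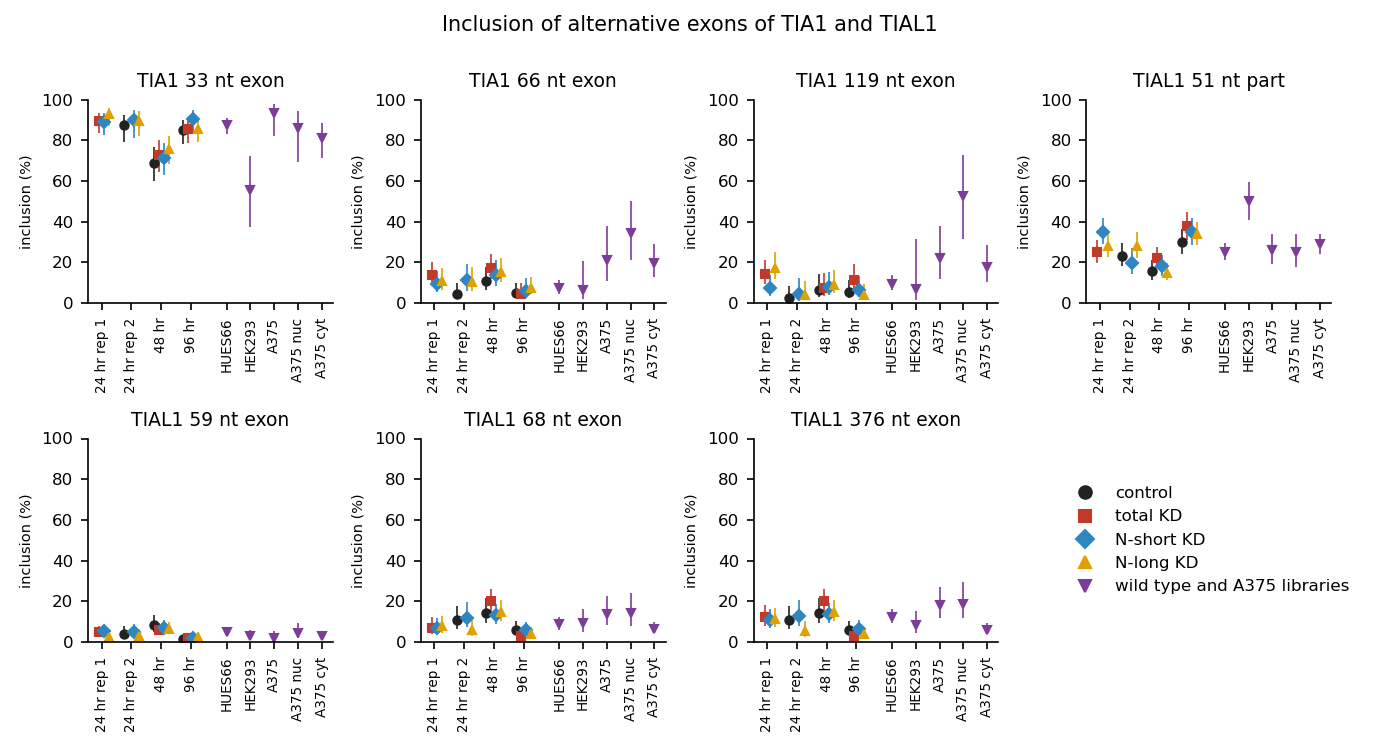
Inclusion (y axis, percent, with 95% Wilson intervals) of the 6 tested TIA1 and TIAL1 exons and share of the longer form for the TIAL1 51 nt part, in the doxycycline sets and in the 5 single libraries (x axis). The TIA1 33 nt exon dips to 69.0% to 75.9% at 48 hr, where the TIA1 66 nt and TIAL1 376 nt exons reach their highest values among the doxycycline sets, 17.02% and 20%, and HEK293 has the lowest TIA1 33 nt exon inclusion, 55.6%.

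Between cell lines the members differed in different ways, with 1 library a line and so no test. ELAVL1 was at 98.3 CPM in wild-type HUES66, 81.3 in HEK293 and 62.9 in A375. Relative to HUES66 this was 0.827 (95% interval 0.761 to 0.898) in HEK293 and 0.640 (0.580 to 0.705) in A375, while HUES66 doxycycline libraries other than total KD spanned 80.4 to 103.2 CPM, so HEK293 lay inside that spread and A375 below it. KHSRP was at 737.7 CPM in HUES66, 891.2 in HEK293 and 488.3 in A375. TIAL1 hardly varied, at 196.7, 219.8 and 219.3 CPM, which lies within its HUES66 range of 203.9 to 238.4 but for wild-type HUES66 itself.

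TIA1, ZFP36L1 and ZFP36L2 were lower in HEK293 than in the other lines. TIA1 was at 41.1 CPM in HEK293, 83.3 in A375 and 126.3 in HUES66, a ratio of 0.326 (0.292 to 0.363) between HEK293 and HUES66. ZFP36L1 was at 2.34 CPM in HEK293 (21 reads) against 16.4 in HUES66 and 18.5 in A375, and ZFP36L2 at 1.67 (15 reads) against 4.85 and 11.7. At 2-fold or more below HUES66 in HEK293 were thus 3 of the 6 members with 20 reads or more in both lines together, beside 19.9% of 13620 genes. ZFP36L2 (2.41, 1.82 to 3.17) and ZFP36 (12 reads against 8 in a deeper library, ratio 5.02, 1.89 to 14.2) were at least 2-fold higher in A375 than in HUES66, beside 22.6% of 13845 genes. HEK293 also differed in splicing: the TIA1 33 nt exon was included at 55.6% (37.3 to 72.4, 27 reads), against 87.4% (82.9 to 90.8) in HUES66 and 93.3% (82.1 to 97.7) in A375. The TIAL1 51 nt form took 50% (40.6 to 59.4) in HEK293 and 25.2% and 25.9% in HUES66 and A375. The last TIA1 intron (chr2:70212846-70214348) held 27.3% of TIA1 reads in HEK293 and 9.5% to 13.2% in the other 18 libraries. The low TIA1 level of HEK293 was therefore less marked at this intron than over the whole gene.

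The A375 fractions split the members. ELAVL1 was at 46.6 CPM in nuclear and 98.96 in cytoplasmic RNA, a ratio of 0.471 (95% interval 0.415 to 0.534), the lowest of the members. The median ratio over 12759 genes was 0.929. KHSRP (0.608, 0.582 to 0.634), ZFP36L1 (0.670, 0.538 to 0.828) and ZFP36L2 (0.700, 0.539 to 0.899) were also lower in nuclear RNA. TIAL1 was at 1.04 (0.973 to 1.10) and ZFP36, with 16 and 47 reads, at 1.18 (0.622 to 2.11). TIA1 had the highest ratio of the members, 2.18 (1.97 to 2.42), with 96.8 CPM in nuclear and 44.3 in cytoplasmic RNA, and was the only 1 whose interval lay above 1. At least 2-fold lower was thus 1 of 7 members, beside 19.1% of all genes, and at least 2-fold higher was 1 of 7, beside 22.8%. CPM compare shares of each fraction's reads, not amounts per cell.

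Exons of TIA1 and TIAL1 transcripts annotated as subject to nonsense-mediated decay had higher inclusion in nuclear RNA. The TIA1 119 nt exon (chr2:70228344-70228462), whose transcript meets a stop 54 nt past its end, was at 52.6% in nuclear (31.7 to 72.7, 19 reads) and 17.6% in cytoplasmic RNA (10.4 to 28.4, 68 reads). The TIAL1 376 nt exon was at 18.9% (11.6 to 29.3) and 5.96% (3.8 to 9.22). For the TIA1 66 nt exon the shares were 34.2% (21.2 to 50.1) and 19.8% (12.9 to 29.1), with intervals that overlapped. The in-frame TIA1 33 nt exon was at 86.2% and 81.2%, and the TIAL1 51 nt form at 25% and 28.97%, without a separation of the intervals.

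**Figure D5:**
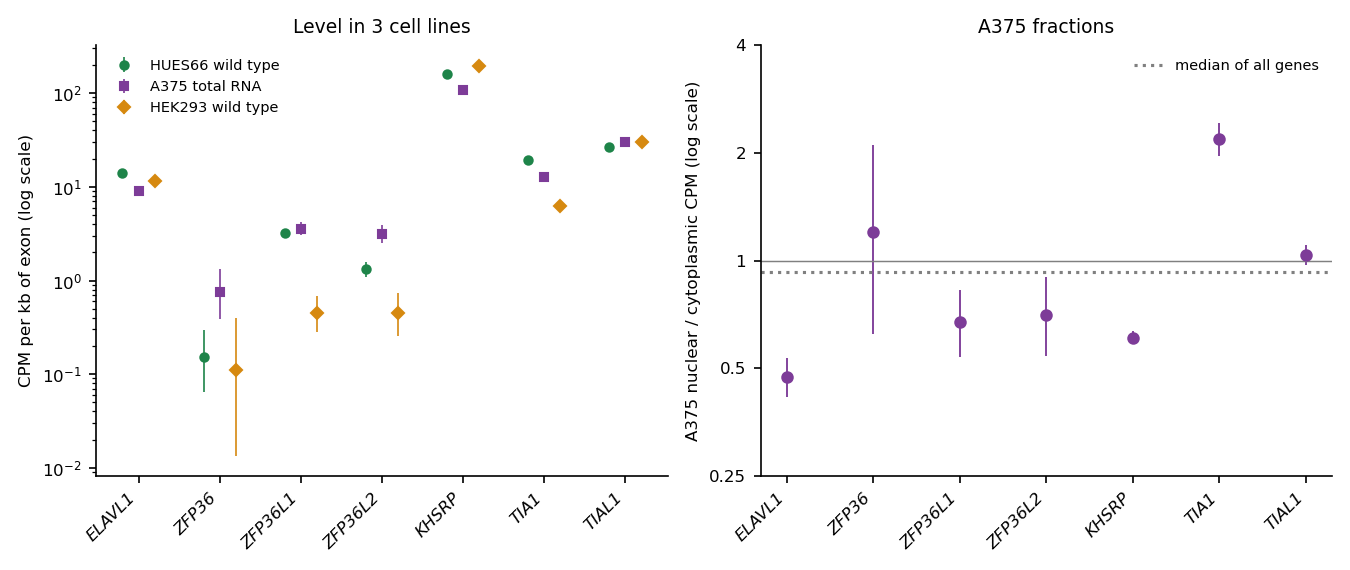
Left, CPM per kilobase of exon (y axis, log scale) of each member in 3 cell lines with 95% Poisson intervals; right, ratio of nuclear to cytoplasmic CPM in A375 (y axis, log scale) with 95% intervals and the median of all genes as a dotted line. ELAVL1 is lowest in the right panel at 0.471 and TIA1 highest at 2.18, and HEK293 is lowest for ZFP36L1, ZFP36L2 and TIA1 in the left panel.

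Of 18 deadenylase subunits and relatives, 12 decapping and 5' decay factors, 15 exosome genes and 9 poly(A)-binding and stress granule genes 0 were called in total KD by edgeR, beside 2.28% of all genes. At an unadjusted p under 0.05 there were 1, 3, 2 and 1, and the list medians were -0.02, -0.03, 0.05 and 0.00. In the isoform knockdowns edgeR called 0 genes of these lists, with at most 1 gene of a list at an unadjusted p under 0.05 in a contrast.

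Transcripts known for AU-rich elements had 2 of 32 tested genes called in total KD, beside 2.28% of all genes, with a list median of 0.04. The list was chosen with earlier results of these data known, so its values in total KD are given as a description. VEGFA, the vascular growth factor, rose by 0.82 on the log2 scale (SE 0.099). TFRC, the transferrin receptor, fell by 0.31 (SE 0.048). By time, 26 of 31 were called, 12 higher and 14 lower at 96 hr, beside 60.1% of all genes. ODC1, the first enzyme of polyamine synthesis, rose by 2.08 on the log2 scale (SE 0.045), with an adjusted p of 3.3e-21. CDKN1A, a cell-cycle inhibitor, fell by 1.58 (SE 0.20), with an adjusted p of 2.8e-07. The transcription factor genes FOSL1 (-1.20) and NR4A1 (-1.05) fell as well.

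By time 20 of 26 other RNA stability binders were called (14 higher), 15 of 18 deadenylase genes (9 higher), 7 of 12 decapping genes (3 higher), 13 of 15 exosome genes (12 higher) and 8 of 9 poly(A)-binding and stress granule genes (8 higher). Of all genes 60.1% were called and 29.7% were called higher, so the 7 of 12 decapping genes were not above the share of all genes. List medians were 0.12, 0.12, 0.01, 0.17 and 0.18 on the log2 scale, beside -0.01 over all genes. Among them the poly(A)-binding protein PABPC4 had 0.55 (SE 0.028), the exonuclease XRN1 -0.45 (SE 0.042) and the exosome subunit EXOSC4 0.67 (SE 0.13), each past an adjusted p of 0.05.

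The genes most like ELAVL1 over the 14 doxycycline libraries, by Pearson's r of log2 CPM after each set's mean was subtracted, among 10108 genes with a mean of at least 50 reads, were HSP90B1 (r = 0.94), TUBGCP4 (0.93), FAM126A (0.93), PDIA6 (0.93) and DYNC1H1 (0.92). The likeness rests on the total KD libraries: over the other 11 libraries the same r values were -0.48, -0.33, -0.07, -0.22 and 0.23. Their own log2 fold changes in total KD were -0.12, -0.44, -0.12, -0.09 and -0.24, all smaller than that of ELAVL1. RBFOX2 had r = 0.72 (rank 358), and among the members TIAL1 was nearest with 0.61, then KHSRP with 0.43, ZFP36L1 with 0.32, ZFP36L2 with 0.10 and TIA1 with -0.05. These too changed over the 11 libraries other than total KD. RBFOX2 then had 0.26, TIAL1 0.39, KHSRP -0.42, ZFP36L1 0.37, ZFP36L2 0.20 and TIA1 0.07. All these libraries share their sets and the same read totals, so the values are a description.

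The authors' deposited tables of splicing differences, 9 in all for control against each knockdown and time, list 16 to 25 events of ELAVL1, KHSRP, TIA1 and TIAL1 each and none of the ZFP36 family. None of these events in the authors' deposited tables reached an adjusted p under 0.05 with an inclusion difference of at least 0.1. Over all genes 1 to 54 of the 45022 to 57221 events in each of the authors' deposited tables did, so nothing about the members is read from their count of 0. The smallest adjusted p of a member event in the authors' deposited tables was 0.171, for N-short KD at 48 hr.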

How the data were processed

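RNA was sequenced from 19 ribosomal RNA-depleted libraries. The deposited junction files hold raw counts of spliced reads per junction, without normalization. The submitters' processing notes name hg38, STAR 2.7.1 and SAMtools 1.9, with no roles. The authors also deposited 9 tables of splicing differences, each with an inclusion difference and a p-value with its adjusted value; their 69 per-library columns were not used.

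Junctions were matched to GENCODE 29 (GRCh38), and reads on introns with a single gene name were summed per gene (93.3% to 94.8% of reads); unspliced reads are not measured. Genes, junctions and cassette exons were fitted with edgeR 4.0.16 (R 4.3.3, TMM scaling, its own filter on low counts, quasi-likelihood F-test). One fit took the 14 doxycycline libraries with terms for set and knockdown, the other the 8 libraries of 48 and 96 hr with terms for knockdown and time. SE is the log2 fold change over the square root of F. Benjamini-Hochberg adjustment ran over all features of a contrast, with a threshold of 0.05. An exon's inclusion count is the mean of its pair of inclusion junctions, rounded, beside the count that skips it. The fits were tested on simulated data. Alternatives were DESeq2 1.42.0, limma 3.58.1, other scalings and filters, wild-type HUES66 as the control of 24 hr replicate 1, and leaving out each library. Single libraries carry 95% Poisson, Wilson or exact ratio intervals, for counting error only. Fold counts between single libraries added 0.5 reads and took genes with 20 reads or more in the pair.

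Libraries of a set deviate together: the residual correlation had a median of 0.747 and a minimum of 0.541 over 18 pairs of the same set, and a median of -0.281 over 55 pairs of different sets, so set is a block.

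Members and gene lists were chosen with earlier results of these data known. Every member is named, with its junctions of 20 reads or more and the exons that passed the filter. From each list up to 4 called genes with the largest changes could be named, and 5 genes most like ELAVL1. The knockdown result of the list of other RNA stability binders is not reported here. The time fits of junctions and exons, the comparison with RBFOX2 coding sequence and the share of the 51 nt form were added after the data were seen.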

Additional observations from a re-analysis of the deposited data

Results flagged for a closer look

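In groups of 4 libraries, 28 series of member values were examined for a library far from the other 3, and 2 stood out. The libraries of such a group come from 24, 48 and 96 hr and are not replicates. No rate expected by chance is therefore set beside this count. The TIA1 33 nt exon in N-short KD was lowest at 48 hr, at 71.2% against 89.0% to 90.6% in the other 3 libraries. The TIAL1 59 nt exon in N-long KD was highest at 48 hr, at 6.18% against 2.40% to 2.99%. The other groups of 48 hr lay on the same side, as the comparison by time shows.

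Among junctions absent from GENCODE 29, which no comparison uses, 2 within members had 10 or more reads in a single library and 0 in the other 18. A KHSRP junction (chr19:6418549-6418701) had 22 reads in N-long KD at 96 hr; its outer end is that of the annotated intron chr19:6418582-6418701. A TIAL1 junction of 62 nt (chr10:119580157-119580218) had 11 reads in N-short KD at 48 hr. Both are values of 1 library, with no replicate.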

How the results depend on the processing

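Counts of members called stayed within 1.5 times of those given under each alternative run, except exons by time, where limma called 0 (87 of 6754 exons in all, against 1025 of 6763 by edgeR). Without the replicate block, ELAVL1 had a log2 fold change of -0.98 in total KD and 1 member gene was called, as with it, and no isoform call of a member changed; over all genes the count fell from 305 to 62, and its split from 139 higher and 166 lower to 48 and 14. The count over all genes in total KD was 549 with wild type as a control. It was 190 when the control of 48 hr was left out, and 181 when total KD of 48 hr was. With no filter on low counts the isoform counts were 4 (N-short KD), 16 (N-long KD) and 17 (between them). Without the block the total KD changes of KHSRP and TIA1 turned sign, to 0.042 and -0.017. Small changes that did not pass also did: KHSRP in N-short KD to 0.026 without the replicate block and to 0.015 with wild type as a control, TIA1 in N-short KD to 0.014 with wild type, and the TIAL1 376 nt exon in N-short KD to 0.0013 without the block. With 1 library left out, the N-short KD changes ran from -0.12 to 0.13 for ZFP36L1, -0.021 to 0.0043 for KHSRP and -0.021 to 0.011 for TIA1. Those of N-long KD ran from -0.19 to 0.064 for ZFP36L1, -0.039 to 0.43 for ZFP36L2 and -0.0073 to 0.021 for KHSRP. ELAVL1 between the isoform knockdowns ran from -0.14 to 0.092, and the TIA1 119 nt exon by time from -0.61 to 0.13. ELAVL1 in total KD ran from -1.14 to -0.64.

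Levels moved by more than their counting error with the scaling. In wild-type HUES66, TMM scaling, all junction reads as the total and the median of the controls gave 103.9, 92.9 and 92.96 CPM for ELAVL1. The same gave 780.2, 697.1 and 671.6 for KHSRP, 133.6, 119.4 and 151.4 for TIA1, and 208.02, 185.9 and 222.2 for TIAL1. All junction reads as the total gave 457.9 (KHSRP) and 205.7 (TIAL1) in A375. In HEK293 TMM scaling gave 834.1 and 205.7, and all junction reads 834.4 and 205.8, for KHSRP and TIAL1. Depth limits ZFP36, ZFP36L2 and the exons with under 20 inclusion reads.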
